A study of Mus musculus with 18 samples.

Results

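The genes described here are the protein-coding genes of the mouse autosomes whose annotated span, from the outermost start to the outermost end with introns, is 300 kb or more in RefSeq GRCm38.p6. Of 20665 autosomal protein-coding genes, 533 met this rule, and 531 of them could be matched to an RNA count. These were divided by their mean expression before induction, in counts normalised to library size (CPM) over 3 RNA libraries, into 288 genes under 1 CPM and 243 genes at 1 CPM or more. The remaining 2, Gm38666 and Gm38667, are overlapping gene models on chromosome 18 without a matched count and enter only the total. The cells were SV40-immortalized dermal fibroblasts of newborn male 129/S6 mice at passages 20-30. They are labelled as knocked out for both macroH2A1 and macroH2A2 and as carrying a macroH2A2-GFP transgene that doxycycline induces. Every condition except the H2A.Z library shares this genotype. Bases enriched for macroH2A2-GFP were called from native ChIP-seq with GFP-Trap at 0h (no doxycycline) and after 6h, 24h and 5d of 0.5 ug/ml doxycycline. A further 24h sample had 0.5 uM flavopiridol for its last 18 hours. In 2 others, at 6h and 24h, 10 days of 5 uM GSK126 preceded doxycycline. H2A.Z was profiled in untreated wild-type primary dermal fibroblasts of newborn females at passages 0-1. Each of these 8 ChIP conditions has 1 library, so every difference between them describes 2 libraries and has no test. Poly(A) RNA was sequenced at 0h, 6h and 24h in 3 libraries each.

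MacroH2A variants are histones that replace H2A in nucleosomes and carry a large globular domain. They are known for broad domains over silent chromatin and for being scarce over transcribed genes. Very long genes are a useful ruler for such a mark because RNA polymerase needs hours to cross them, and many encode cell adhesion molecules, ion channels, guidance cues and cytoskeletal linkers. Flavopiridol inhibits CDK9, the kinase that releases paused RNA polymerase into elongation, and GSK126 inhibits EZH2, the methyltransferase of lysine 27 on histone H3.

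RNA of H2afy2, the gene for macroH2A2, stood at 10.7, 25.5 and 9.73 CPM in the 0h libraries. At 6h it ranged from 791 to 823 CPM, and the 24h libraries had 1715 to 1748 CPM. The 0h library with 25.5 CPM lay above its 2 replicates, and the part of this low level in the 0h regions was not tested. RNA of H2afy, the gene for macroH2A1, stood at 51.7 to 60.5 CPM in all 9 libraries. The deleted part of that gene is not given, so this level says nothing about the knockout. Libraries held 29338093 to 37793178 counts over genes. The 13 dermal fibroblast markers had a summed level of 15076 CPM at 0h, most of it from Vim (4559), Fn1 (4209) and Col1a1 (3237). Lum was at 0.00963 CPM and Dcn at 1.84. Of the 13, 12 were at 1 CPM or more. Of the defining markers of other cell types, 0 of 4 for endothelium, 1 of 4 for immune cells, 2 of 6 for keratinocytes, 1 of 6 for Schwann cells and melanocytes, 1 of 4 for neurons and 1 of 5 for muscle and fat reached that level. Their summed 0h levels were 1.22, 2.74, 7.17, 1.94, 12.1 and 5.02 CPM. The muscle and fat list reached a sum of 11.8 CPM in the 6h libraries and 3.95 in the 24h ones, and its part in the RNA results was not tested. Nearly all of this sum was Acta1, with 4.82 CPM at 0h, 11.6 at 6h and 3.78 at 24h. Myod1, Des, Adipoq and Plin1 stayed at 0.289 CPM or less in every library.

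The start regions of 4 genes, 2 of each class, are shown as examples and do not stand for their classes. Cntnap2 (contactin-associated protein, a neuronal adhesion molecule) and Lsamp (limbic system-associated membrane protein) are the longest genes under 1 CPM, and both had 0 CPM at 0h. Ltbp1 (latent TGF-beta binding protein) and Macf1 (a linker of microtubules and actin) had the highest expression of all members. Each sequence runs from 250 bases before to 50 after a RefSeq start in GRCm38.p6, 5′ to 3′ on the gene's strand, and CG dinucleotides are in capitals. The windows are chr6:45059811-45060110 on the plus strand for Cntnap2, chr16:39984114-39984413 on the plus strand for Lsamp, chr17:75005279-75005578 on the plus strand for Ltbp1 and chr4:123684311-123684610 on the minus strand for Macf1. The Macf1 window belongs to a start 3442 bases inside the outermost one.
Cntnap2: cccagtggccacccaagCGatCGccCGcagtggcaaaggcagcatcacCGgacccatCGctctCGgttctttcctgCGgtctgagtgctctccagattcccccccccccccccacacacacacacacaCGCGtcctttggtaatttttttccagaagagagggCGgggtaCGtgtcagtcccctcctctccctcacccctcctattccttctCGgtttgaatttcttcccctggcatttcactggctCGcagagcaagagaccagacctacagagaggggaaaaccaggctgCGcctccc
Lsamp: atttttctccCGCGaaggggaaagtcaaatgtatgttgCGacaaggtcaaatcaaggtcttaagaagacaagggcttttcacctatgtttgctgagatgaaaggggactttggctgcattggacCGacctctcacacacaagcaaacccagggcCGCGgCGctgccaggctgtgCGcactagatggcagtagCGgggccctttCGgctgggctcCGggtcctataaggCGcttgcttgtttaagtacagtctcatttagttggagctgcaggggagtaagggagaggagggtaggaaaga
Ltbp1: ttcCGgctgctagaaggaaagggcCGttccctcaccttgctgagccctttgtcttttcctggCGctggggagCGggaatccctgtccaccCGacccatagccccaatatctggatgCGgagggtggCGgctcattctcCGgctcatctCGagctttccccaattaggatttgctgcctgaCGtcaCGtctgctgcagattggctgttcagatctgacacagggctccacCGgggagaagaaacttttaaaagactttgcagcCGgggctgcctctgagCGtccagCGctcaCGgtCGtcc
Macf1: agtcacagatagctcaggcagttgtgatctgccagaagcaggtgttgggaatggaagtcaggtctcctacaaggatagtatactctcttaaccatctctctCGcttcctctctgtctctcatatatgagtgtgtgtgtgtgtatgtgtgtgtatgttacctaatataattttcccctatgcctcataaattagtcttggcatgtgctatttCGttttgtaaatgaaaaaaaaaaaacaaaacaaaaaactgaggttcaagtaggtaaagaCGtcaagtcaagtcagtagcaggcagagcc
The windows hold 14, 12, 17 and 3 CG dinucleotides. An H2A.Z region of the primary fibroblasts covers the whole of the Lsamp and Ltbp1 windows and none of the Cntnap2 and Macf1 windows. MacroH2A2 regions are absent from the first 3 windows in all 7 macroH2A2 libraries, while the Macf1 window lies inside a region at 0h, 24h, 24h with flavopiridol and 6h with GSK126. A promoter sequence, and with it a strand, was matched for 405 members, 220 under 1 CPM and 185 at 1 CPM or more. Their windows held a median of 14.5 CG dinucleotides under 1 CPM and 21 at 1 CPM or more, beside 16 over 13974 autosomal protein-coding genes of 3 kb or more. The letters GGGCGG, searched on both strands as the GC box, were in 49.5% of windows under 1 CPM, 56.2% at 1 CPM or more and 52.6% of all windows. An H2A.Z region touched 57.3%, 76.2% and 65.2% of them. A 24h macroH2A2 region touched 2.27%, 5.41% and 9.08%.

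Coverage of a gene is the percent of its span that lies inside called regions. Coverage of expressed long genes was higher at 6h than at 0h, and lower again at 24h. In the 243 genes at 1 CPM or more, mean span coverage was 5.78% at 0h, 23.6% at 6h, 11.4% at 24h and 8.95% at 5d. The medians were 1.44%, 19.0%, 5.20% and 2.63%. Between 0h and 6h, 232 of the 243 genes gained coverage and 7 lost it. The gain was 10 points or more in 149 genes, 61.3%, beside 47.4% of all 10009 protein-coding genes of 3 kb or more in that class, and no gene lost as much (beside 0.34%). Between 6h and 24h, 201 genes lost coverage and 38 gained it, and 102 lost 10 points or more (42.0%, beside 42.5% of all genes of the class) while 10 gained as much (4.12%, beside 2.67%). Between 24h and 5d, 160 lost and 41 gained, with 18 losing 10 points or more (7.41%, beside 6.85%) and 1 gaining as much (0.412%, beside 0.49%). Mean coverage of these genes was higher at 6h than at 24h, and at 24h than at 5d, on each of the 19 autosomes. The chromosomes share 1 library per condition and are not replicates.

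With the broader calls of the 5d library (window 1000, gap 4000) the 5d mean was 13.7%. No such calls of the 24h library were used here, so this value has no counterpart at 24h. The rise from 0h to 6h goes with larger lists too, since all regions together cover 201 Mb at 0h, 383 Mb at 6h, 363 Mb at 24h and 351 Mb at 5d. Inside the members the regions cover 14.2 Mb at 0h, 37.8 Mb at 6h, 26.3 Mb at 24h and 24.6 Mb at 5d.

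Most long genes under 1 CPM had little of their span inside macroH2A2 regions at any time. In the 288 genes under 1 CPM, mean coverage was 4.03% at 0h, 5.52% at 6h, 6.94% at 24h and 7.61% at 5d, and the medians lay between 0.387% and 1.18%. At 24h, 43 of the 243 expressed genes had no covered base. This is 17.7%, beside 53.6% of expressed genes of 100 to 300 kb and 77.8% of those of 30 to 100 kb. Of the 288 genes under 1 CPM, 117 had none (40.6%, beside 37.5% and 43.1% in the same 2 length groups). From 0h to 6h, 13 gained 10 points or more (4.51%, beside 17% of all 7205 genes of the class) and 2 lost as much (0.694%, beside 7.43%). There were 15 that gained 10 points or more between 6h and 24h (5.21%, beside 25.2%), and 0 lost as much (beside 5.26%). From 24h to 5d, 6 gained 10 points or more (2.08%, beside 8.2%) and 1 lost as much (0.347%, beside 15.6%). The first 6 by name of those without a covered base at 24h were A830018L16Rik, Abca13, Adcy2, Adgrb3, Agbl1 and Agbl4. Of the 8.55 Mb covered in all genes under 1 CPM at 6h, 80.7% was also covered at 24h and 78.4% at 5d. In the expressed genes 29.3 Mb was covered at 6h, of which 39.7% was covered at 24h and 31.8% at 5d.

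Genes covered over 50% or more of their span were few. Among expressed members there were 24 at 6h (9.88%, exact Clopper-Pearson 95% interval 6.43 to 14.3%, counting error over genes only), beside 15% of all genes of the class. There were 8 at 24h (3.29%, interval 1.43 to 6.38%), beside 2.89%, 23 with flavopiridol (9.47%, beside 9.64%) and 4 at 5d (1.65%, beside 1.42%). At 0h there were 2 (0.823%, beside 0.939%), and after GSK126 27 at 6h (11.1%, beside 18.7%) and 4 at 24h (1.65%, beside 1.87%). Among members under 1 CPM there were 6 at 6h (2.08%, beside 9.38%), 7 at 24h (2.43%, interval 0.983 to 4.94%, beside 18.3%), 7 with flavopiridol (2.43%, beside 17.9%) and 8 at 5d (2.78%, beside 14.8%). At 0h there were 5 (1.74%, beside 6.94%), and after GSK126 4 at 6h (1.39%, beside 7.7%) and 7 at 24h (2.43%, beside 12.3%). No member was covered over 50% or more by H2A.Z, beside 4.07% of all genes under 1 CPM and 1.39% of those at 1 CPM or more.

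The split by expression was not a simple fall with expression. Of the members under 0.01 CPM, 142 genes had a mean coverage of 2.47% at 6h and 2.88% at 24h. The 97 genes from 0.01 to 0.1 CPM had 4.28% and 5.74%. The 49 genes from 0.1 to 1 CPM had 16.8% and 21.1%, the highest 24h mean of the 6 groups. The 52 genes from 1 to 5 CPM had 18.0% and 17.04%, the 66 from 5 to 20 CPM had 17.9% and 11.4%, and the 125 at 20 CPM or more had 28.9% and 9.05%. The most expressed group therefore had the highest mean at 6h, and the barely expressed group the highest at 24h and, with 21.4%, at 5d. Genes near the limit of the classes were Klhl1 and Gria1 at 1.05 CPM just inside the expressed class and Slc2a13 at 0.742 CPM just outside it. The shortest member, Zfp423, spans 300244 bases, and the longest gene just below the limit, Akap13, spans 299084 bases.

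**Figure D1:**
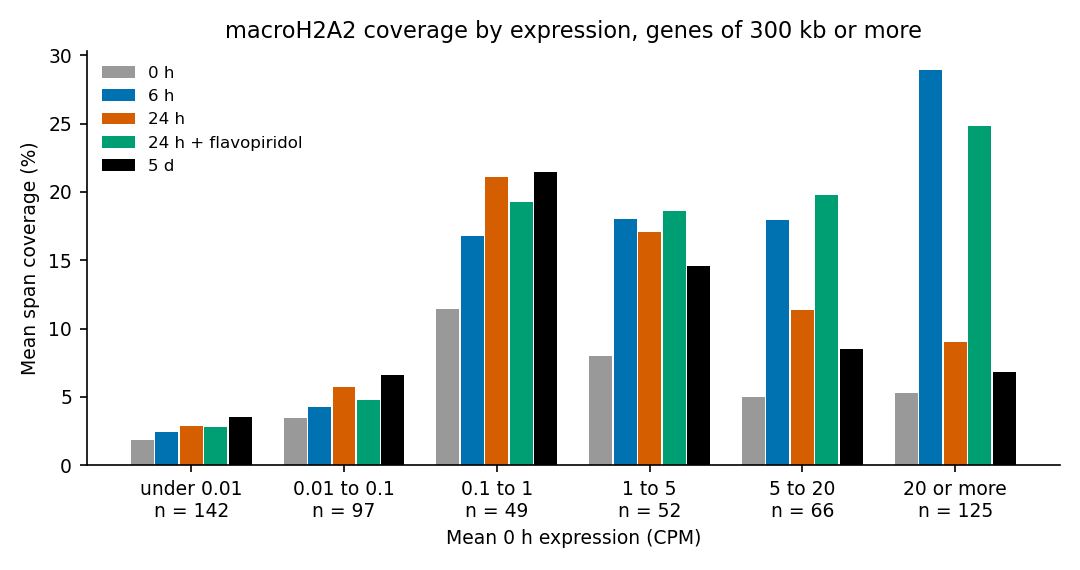
Mean span coverage (%, vertical axis) by macroH2A2 regions of the 531 genes with a count, in 6 groups by mean 0h expression in CPM, for 5 libraries (1 library per bar colour, 0h to 5d). In genes at 20 CPM or more the bars at 6h (28.9%) and at 24h with flavopiridol (24.8%) stand above 24h (9.05%), while under 0.01 CPM all 5 bars lie at 3.53% or less.

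Along the gene, coverage of the expressed class sloped from start to end. The 405 genes with a strand were cut into 10 equal parts from start to end. At 6h the mean was 29.2% in the first part and 17.8% in the last, in 185 genes. At 24h it was 12.1% and 9.38%, with the highest value, 13.4%, in the third part and the lowest, 7.48%, in the seventh. At 5d the first and last parts were at 9.18% and 6.87%. A 6h region touched the first part of 82.2% of genes and the last part of 66.5%, against 45.9% and 35.1% at 24h. In the 220 genes under 1 CPM the slope ran the other way and was shallow, from 4.70% to 6.61% at 6h and from 5.58% to 8.26% at 24h.

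**Figure D2:**
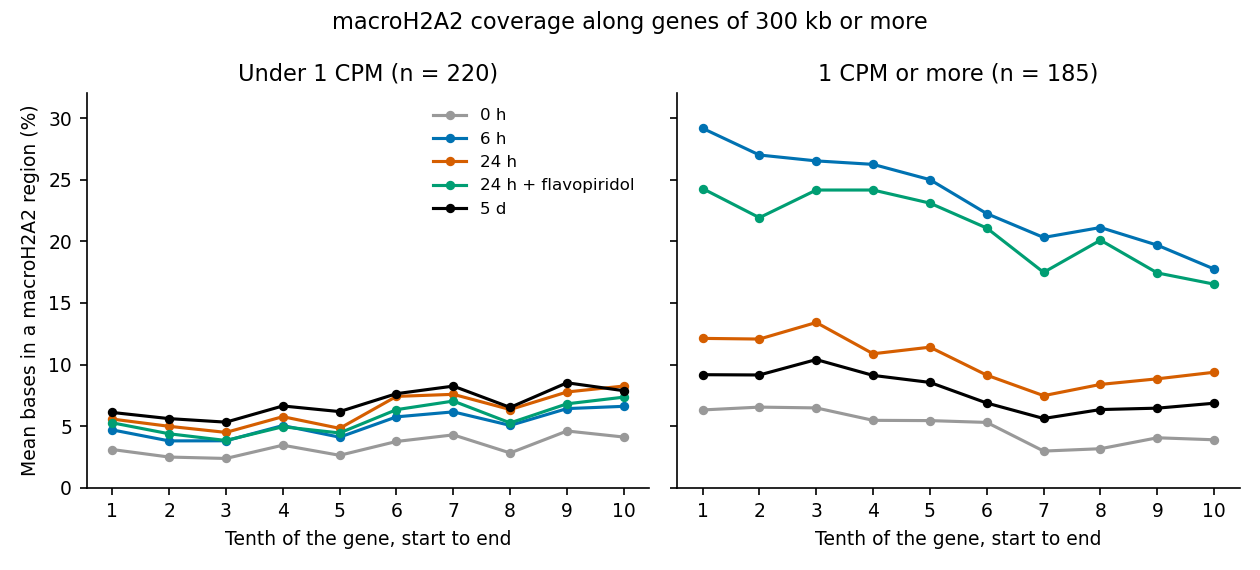
Mean percent of bases inside macroH2A2 regions (vertical axis) in each of 10 equal parts of the gene from start to end (horizontal axis), for 220 genes under 1 CPM and 185 genes at 1 CPM or more, 1 library per line. In the expressed class the 6h and flavopiridol lines run well above the 24h, 5d and 0h lines in every part, and all lines under 1 CPM stay at 8.53% or less.

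The starts of expressed long genes lay next to covered chromatin. From 10 to 2 kb before the start, the mean coverage of the 185 expressed genes was 43.6% at 24h, 41.0% at 6h, 38.8% at 5d and 26.2% at 0h. Over the first 2 kb of the gene it was 11.1%, 14.9%, 8.82% and 4.64%. From 10 to 20 kb inside it was 11.6% at 24h and 30.0% at 6h. The flank was thus covered to a like extent at 6h and 24h, and the gene body was not. H2A.Z of the primary fibroblasts covered 69.6% of the first 2 kb and 5.97% of the window from 10 to 2 kb before the start. At the other end the contrast was smaller, with 20.2% at 24h from 2 to 10 kb past the gene end and 8.30% from 2 to 5 kb inside it. Around the starts of the 220 genes under 1 CPM, macroH2A2 coverage at 24h was 7.33% from 10 to 2 kb before the start, 4.10% over the first 2 kb and 4.73% from 10 to 20 kb inside, while H2A.Z covered 43.4% of the first 2 kb.

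**Figure D3:**
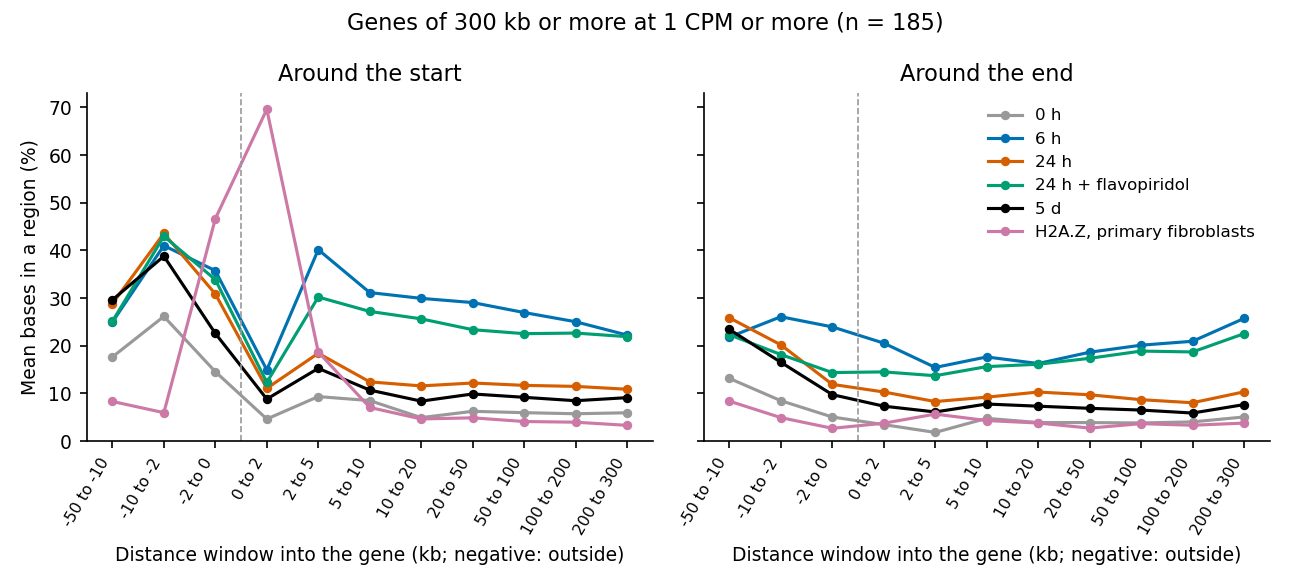
Mean percent of bases inside regions (vertical axis) in windows of distance from the start (left) and the end (right) of 185 genes at 1 CPM or more, with negative distances outside the gene and the dashed line at the gene edge. MacroH2A2 lines peak from 10 to 2 kb before the start and drop over the first 2 kb, where the H2A.Z line reaches 69.6%. Every macroH2A2 line rises again from 2 to 5 kb inside the start, and the 6h and flavopiridol lines are the highest from there on.

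The most expressed members show the range of these patterns. Ltbp1 (ENSMUSG00000001870, chromosome 17, 75005480 to 75392512, plus strand) was at 1039 ± 4.45 CPM (SD, n = 3). Its coverage was 3.98% at 0h, 68.4% at 6h, 6.61% at 24h, 74.2% at 24h with flavopiridol and 3.26% at 5d. It was 71.9% at 6h and 13.3% at 24h after GSK126. Coverage was high at 6h and with flavopiridol only, among the libraries without GSK126. Lpp, a LIM-domain protein of focal adhesions on chromosome 16 (24393350 to 24992578), had 597 ± 5.01 CPM. It had 41.6% at 6h and no covered base at 0h, 24h and 5d, with 15.7% under flavopiridol. Macf1 (chromosome 4, 123349633 to 123687802, minus strand) had 598 ± 17.5 CPM. Its coverage was 42.6% at 6h, 1.01% at 24h, 34.7% with flavopiridol and 0 at 5d. Slit2, a secreted guidance cue and ligand of Robo receptors, had 249 ± 2.19 CPM and coverage of 34.0% at 6h, 1.75% at 24h and 14.9% with flavopiridol. Dst (dystonin, a cytoskeletal linker, 399 ± 9.87 CPM) stayed low throughout, with 2.99% at 6h, 0 at 24h and 11.8% with flavopiridol.

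The 4 largest losses between 6h and 24h were in Zfpm2, Supt3, Bnc2 and Ltbp1. Zfpm2, a cofactor of GATA factors (82.4 CPM), went from 67.7% to 0.801%. Supt3, a subunit of the SAGA coactivator (29.7 CPM), went from 66.4% to 0.317%. Bnc2, a zinc finger protein (23.4 CPM), went from 65.2% to 3.03%. Zfpm2, Supt3 and Bnc2 were each at 0.784% or less at 0h and at 0.877% or less at 5d. With flavopiridol these 3 stood at 22.1%, 24.3% and 32.7%, which is between their 6h and 24h values. Among genes with no covered base at 24h, of which 43 tie in the expressed class, the first 4 by name were 2210408I21Rik, Adam12, Adk and Agap1. Adk (adenosine kinase, 106 CPM) had 24.4% at 6h, and Adam12 (a membrane metalloprotease, 73.8 CPM) had 7.25%.

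Some expressed genes were covered at 24h over one end of the span and empty over the other. Palld, which encodes the actin-associated protein palladin (262 ± 3.23 CPM, chromosome 8, 61511431 to 61902707, minus strand), had 77.5% of its span covered at 24h. At 24h the first 8 parts were at 91.5% or more and the last 2 at 0. At 6h the last 2 parts were at 57.8% and 42.3%. Its coverage was already 71.3% at 0h and was 77.5% at 5d. Stag1, a cohesin subunit (170 CPM), was covered over 48.8% of its first part and 18.7% of its last at 6h. At 24h the first part was at 90.6%, above its 6h value, the second at 10.0%, and the other 8 parts at 0. Sema3a, a secreted guidance cue (343 ± 8.48 CPM), had 89.6% in its first part at 24h and 0 in its last 2, which had 36.8% and 60.1% at 6h. Celf2, an RNA-binding splicing regulator (261 ± 7.10 CPM), had 48.2 to 83.6% in its first 4 parts at 24h and 6.54% or less in the other 6. Stard13, a GTPase-activating protein (74.4 CPM), had 95.2% in its first part and 0 in its last 3. Such layouts were already present at 0h, without doxycycline. The first part was then at 61.0% in Stag1, 53.8% in Stard13, 57.8% in Celf2 and 50.1% in Sema3a, and the last part of each at 0. Stard13, Palld, Stag1 and Sema3a were chosen for the largest excess of the first part over the last at 24h, and Celf2 for its expression.

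The opposite layout was seen at 24h in Mei4, Runx2, Dlgap1 and Hecw2, chosen for the largest excess of the last part over the first at 24h. Mei4, a protein of meiotic recombination (2.93 CPM), had 0 in its first 6 parts and 87.7% in its last. Dlgap1, a scaffold of the postsynaptic density (1.78 CPM), had 11.97% in the first part and 95.3% in the last. Hecw2, a ubiquitin ligase (1.29 CPM), had 0 and 77.3%. Runx2, the transcription factor of bone formation (88.5 CPM, chromosome 17, 44495987 to 44814797, minus strand), had 0 in its first part, 75.2% in the second, 100% in the ninth and 84.3% in the last. At 6h each part of Runx2 was at 71.8% or more. Its start overlaps that of Supt3, which runs from 44777118 to 45119294 on the plus strand. Of the 8 genes of these 2 layouts, Palld, Dlgap1 and Runx2 lie on chromosomes 8 and 17, where coverage was higher in general.

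**Figure D4:**
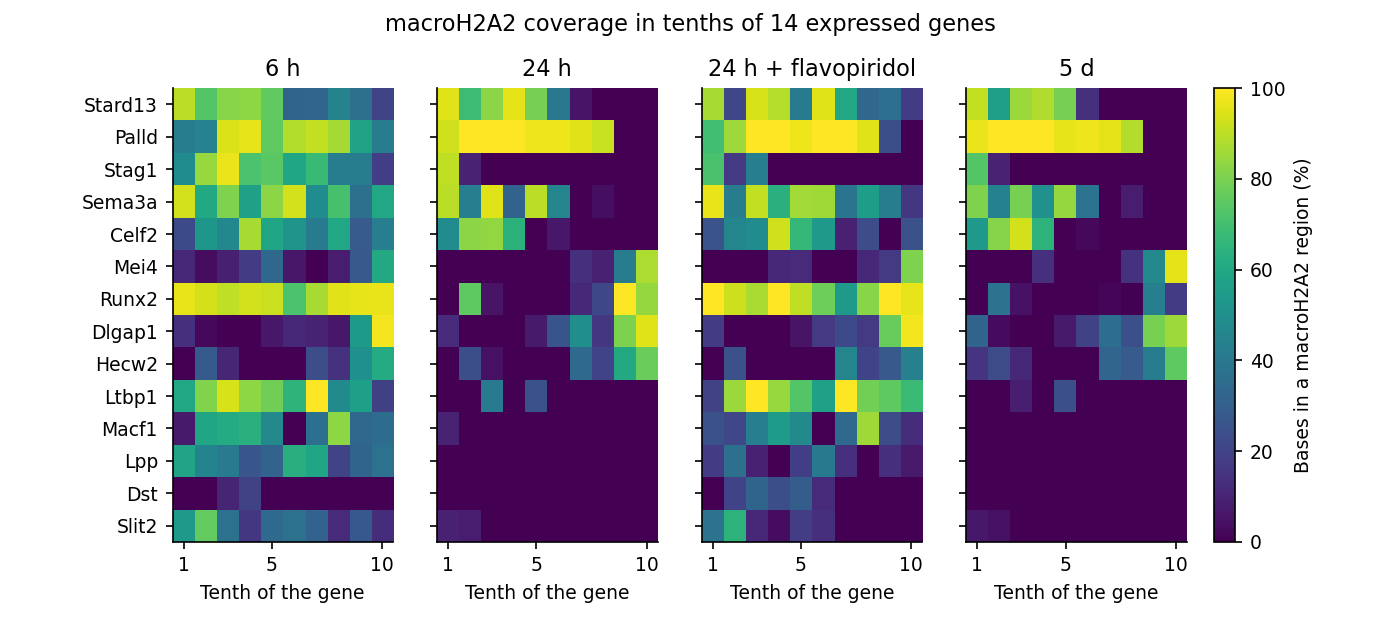
Percent of bases inside macroH2A2 regions (colour, 0 to 100%) in 10 equal parts from start to end (horizontal axis) of 14 genes at 1 CPM or more, in 4 libraries. The 0h library is not drawn. At 24h and 5d Stard13, Palld, Stag1, Sema3a and Celf2 are covered towards the start and Mei4, Dlgap1 and Hecw2 towards the end, whereas Lpp and Dst are empty, Macf1 and Slit2 are nearly so, and Ltbp1 is covered only within parts 3 and 5.

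Coverage at 0h, 24h and 5d was uneven between chromosomes. The 42 expressed members on chromosomes 8, 15 and 17 had a mean of 15.9% at 0h, 41.1% at 6h, 22.5% at 24h, 39.4% at 24h with flavopiridol and 18.7% at 5d. The other 201 had 3.67%, 19.9%, 9.08%, 18.5% and 6.92%. In the macroH2A2 region lists, 66.9 to 76.3% of the running numbers that are left out belong to these 3 chromosomes, so their coverage may be understated. The 4 expressed genes with the highest 24h coverage, Sorbs2 (84.5%), Palld (77.5%), Cacna1a (74.98%) and Dlc1 (61.9%), all lie on chromosome 8. Without the 3 chromosomes, 4.48% of expressed members were covered over 50% or more at 6h, 0.498% at 24h and 5.47% with flavopiridol. The part of this unevenness in the values above was not tested beyond leaving these chromosomes out.

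Most expressed long genes had more of their span inside macroH2A2 regions at 24h with flavopiridol than without it. Of the 243 genes, 198 had more coverage with flavopiridol than without it at 24h and 34 had less. The mean was 22.1% with and 11.4% without, a mean difference of 10.7 points and a median of 6.43. The gain was 10 points or more in 94 genes, 38.7%, beside 25.2% of all genes of the class, and 4 lost as much (1.65%, beside 1.44%). The flavopiridol mean was above the 24h mean on 19 of 19 autosomes, and the 6h mean above the flavopiridol mean on 15. Without chromosomes 8, 15 and 17 the mean difference was 9.46 points. The flavopiridol list is also larger, with 385 Mb in all regions together against 363 Mb at 24h. Inside the members its regions cover 36.8 Mb, against 26.3 Mb at 24h. The part of list size in the difference was not tested. Along the gene, the flavopiridol mean was 24.3% in the first of 10 parts and 16.5% in the last. From 2 to 5 kb inside the start it was 30.2%, against 18.4% at 24h and 40.2% at 6h, and from 200 to 300 kb inside it was 21.9%, against 10.9% and 22.3%. Over the first 2 kb the flavopiridol and 6h means were 12.3% and 14.9%. They were 27.2% and 31.2% from 5 to 10 kb inside, and 23.4% and 29.1% from 20 to 50 kb inside. They were 22.5% and 27.0% from 50 to 100 kb inside, and 22.7% and 25.0% from 100 to 200 kb inside. The gap to 6h was thus widest in the window from 2 to 5 kb. It did not narrow steadily up to 50 kb, and was smaller in each window after that. Against 6h, 24 genes were higher by 10 points or more with flavopiridol (9.88%, beside 11.8%) and 32 were lower (13.2%, beside 30.2%). Of the 27.3 Mb covered with flavopiridol in these genes, 69.4% was covered at 6h and 45.1% at 24h. With only regions scored above the median of their list the mean difference was 1.42 points, and 2.88% of genes gained 10 points or more.

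By expression, mean coverage with flavopiridol was 18.6% in genes from 1 to 5 CPM (17.04% at 24h), 19.8% from 5 to 20 CPM (11.4%) and 24.8% at 20 CPM or more (9.05%). The largest gains were in Ltbp1 (67.5 points), Gse1 (65.3), Runx2 (58.3), Bach2 (56.8), Sbf2 (53.3) and Ttc28 (49.8). Gse1 (48.9 CPM, chromosome 8, 120228501 to 120581383) was at 8.05% at 0h, 47.3% at 6h, 29.6% at 24h, 94.9% with flavopiridol and 5.10% at 5d, so its flavopiridol value lay above every other library. Bach2, a transcriptional repressor (18.1 CPM), was at 53.0% at 6h, 7.48% at 24h and 64.3% with flavopiridol. Sbf2, a myotubularin-related protein (63.9 CPM), was at 41.2%, 2.67% and 56.0%. The largest losses were in genes of low expression, Dnm3 (a dynamin, 2.55 CPM, from 39.5% to 21.8%), Grik2 (a kainate receptor subunit, 2.44 CPM, from 25.4% to 7.87%), Piezo2 (a mechanosensitive channel, 1.16 CPM, from 44.3% to 30.5%) and Plce1 (a phospholipase C, 5.98 CPM, from 55.02% to 43.2%). With only regions scored above the median of their list, Gse1 was at 0.113% at 24h and 31.4% with flavopiridol, while Ltbp1, Runx2, Palld and Sorbs2 had no covered base in either library. Stag1 gained little, from 10.1% to 13.1%, although it stood at 60.6% at 6h.

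Under 1 CPM the mean was 6.25% with flavopiridol and 6.94% without, with 66 genes higher, 108 lower and 114 equal. A gain of 10 points or more was seen in 3 genes (1.04%, beside 10.9% of all genes of the class) and a loss in 11 (3.82%, beside 13.6%). Against 6h, 11 were higher by as much with flavopiridol (3.82%, beside 22.9%) and 0 were lower (beside 6.08%). The difference of -0.687 points changed sign, to 0.265, with only regions scored above the median of their list. Pdgfd, a platelet-derived growth factor (0.171 ± 0.137 CPM), gained most, from 57.4% to 80.3%. Npas3, a transcription factor (0.475 CPM), went from 34.3% to 46.1%, and Kcnq1, a potassium channel (0.0198 CPM), from 7.996% to 19.5%. Col22a1 (collagen XXII, from 35.4% to 19.3%), Pard3b (a polarity protein, from 24.8% to 9.94%), Hdac9 (a histone deacetylase, from 33.7% to 19.2%) and Inpp4b (a phosphoinositide phosphatase, from 40.6% to 26.9%) lost most.

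**Figure D5:**
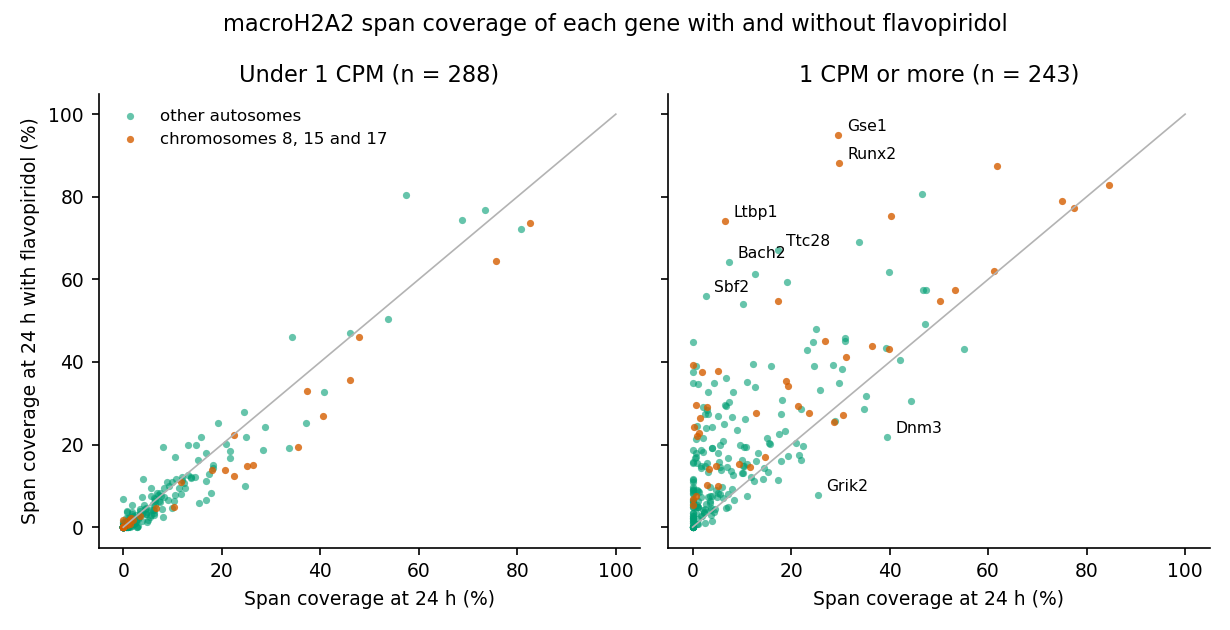
Span coverage at 24h (%, horizontal axis) against span coverage at 24h with flavopiridol (%, vertical axis), 1 point per gene, for 288 genes under 1 CPM and 243 genes at 1 CPM or more; colours mark chromosomes 8, 15 and 17. Most expressed genes lie above the line of equal values, with Gse1, Runx2 and Ltbp1 far above it, while most genes under 1 CPM lie near it.

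With and without GSK126 the class means differed by 2.01 points or less. In the expressed class the mean was 25.6% after GSK126 and 23.6% without it at 6h, and 10.6% and 11.4% at 24h. At 6h, 24 genes were higher by 10 points or more (9.88%, beside 22.5% of all genes of the class) and 6 were lower (2.47%, beside 11%). At 24h, 4 were higher (1.65%, beside 1.57%) and 8 lower (3.29%, beside 5.44%). At 6h the GSK126 mean was the higher one on 16 of 19 autosomes, and at 24h on 8. Under 1 CPM the means were 5.97% and 5.52% at 6h, and 7.14% and 6.94% at 24h. There, 9 genes were higher by 10 points or more at 6h (3.13%, beside 10.1%) and 4 lower (1.39%, beside 11%), and 9 were higher at 24h (3.13%, beside 6.18%) and 8 lower (2.78%, beside 19.9%). Between 6h and 24h after GSK126, 119 expressed genes lost 10 points or more (48.97%, beside 50%) and 5 gained as much (2.06%, beside 1.35%). Under 1 CPM, 2 lost (0.694%, beside 8.34%) and 14 gained (4.86%, beside 17%). The direction of both differences under 1 CPM turned when the length limit was set at 500 kb, to -0.374 and -0.569 points.

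Single genes moved further. At 24h coverage of Cfap299 (a ciliary protein, 0.0204 CPM) was 18.2% without and 58.6% after GSK126, that of Kcnh7 (a potassium channel, 0 CPM) 15.8% and 42.2%, that of Trdn (triadin of muscle, 0 CPM) 8.24% and 27.0%, and that of Dcdc5 6.99% and 24.3%. Cfap299 was also higher after GSK126 at 6h, with 40.1% against 17.5%. Lower values at 24h were seen in Pakap (68.8% and 36.2%), Cacna1a (a calcium channel subunit, 74.98% and 47.4%), Dlc1 (a GTPase-activating protein, 61.9% and 35.6%) and Tln2 (talin 2, 39.3% and 14.0%). At 6h the largest gains were in Slit2 (34.0% and 58.0%), Cfap299, Tbc1d5 (52.8% and 74.9%) and Rims2 (24.7% and 42.9%). The largest losses were in Dlgap2 (51.3% and 30.6%), Lama2 (a laminin chain, 42.9% and 28.6%), Lingo2 (30.6% and 16.7%) and Med12l (53.4% and 41.1%). Trdn and Kcnh7 were also among the 4 genes that gained most from 24h to 5d, reaching 35.7% and 29.5%, beside Dock3 (16.8% to 37.3%) and Lama2 (53.7% to 68.9%).

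The 8 longest genes under 1 CPM were nearly empty in every macroH2A2 library, with 1 exception. Cntnap2 (chromosome 6, 45060061 to 47301393) had 0.196% at 6h and no covered base at 24h. Lsamp (chromosome 16, 39984254 to 42181679) had 0.573% at 6h and 0.237% at 24h. Lrp1b, a lipoprotein receptor, and Csmd1, a complement-regulating membrane protein, had no covered base at 0h, 6h, 24h or with either drug, and 0.0680% and 0.110% at 5d. Nrxn3, a presynaptic adhesion molecule, Fhit, a gene of a common fragile site, and Robo2, a Slit receptor, stayed at 1.66% or less in all 7 macroH2A2 libraries. Ctnna3, an alpha-catenin, was the exception, with 5.08% at 0h, 7.82% at 6h, 11.2% at 24h and 14.1% at 5d. H2A.Z of primary fibroblasts covered 2.53 to 12.6% of these 8 genes. Over whole classes H2A.Z covered a mean of 6.37% of genes under 1 CPM and 4.06% of the expressed ones, the reverse of the order for macroH2A2 at 24h. The classes come from RNA of the immortalized line, and expression in the primary fibroblasts was not measured here. A high value under 1 CPM was seen in Dlgap2, a postsynaptic scaffold (0.0293 CPM, chromosome 8), with 82.6% at 24h and 67.0% at 0h.

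Long genes differed from shorter ones in opposite ways in the 2 classes. At 24h the expressed genes of 300 kb or more had a mean of 11.4%, those of 100 to 300 kb 7.28% and those of 30 to 100 kb 4.84%. At 5d the means were 8.95%, 5.11% and 2.97%, and with flavopiridol 22.1%, 18.2% and 13.2%. At 6h the order was not the same, with 23.6%, 26.2% and 23.3%. Under 1 CPM, 24h coverage was 6.94%, 15.5% and 20.3%. These are values over genes of the same libraries and have no test.

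Groups of members by function, listed with earlier results of these data known, had these values within the expressed class. In 20 matrix, adhesion and cytoskeleton genes the median coverage was 29.1% at 6h, 2.62% at 24h and 22.2% with flavopiridol. In 27 transcription and chromatin regulators it was 20.6%, 3.59% and 18.7%. In 32 trafficking and housekeeping genes it was 15.0%, 2.61% and 9.57%. In 32 genes of neuronal adhesion and synapse organisation it was 19.0%, 11.7% and 17.7%, and in 14 ion channels and neurotransmitter receptors 21.3%, 7.52% and 16.7%. In 28 signalling enzymes and growth factor receptors it was 14.3%, 5.20% and 14.5%, and in 18 genes of common fragile sites 15.5%, 2.48% and 8.38%. Over the whole expressed class the medians were 19.0%, 5.20% and 16.2%. A gain of 10 points or more with flavopiridol, seen in 38.7% of the class, was seen in 9 of the 20 matrix genes, 14 of the 27 regulators, 13 of the 32 trafficking genes and 9 of the 32 neuronal adhesion genes. It was seen in 5 of the 14 channels and receptors, 7 of the 28 signalling genes and 3 of the 18 fragile site genes. Under 1 CPM the medians at 24h lay between 0 in 45 neuronal adhesion genes and 1.86% in 19 transcription and chromatin regulators, beside 0.994% over that class. No test was made between the lists.

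RNA of the members was tested in all 9 libraries with edgeR's quasi-likelihood test, adjusted over 13785 genes at 0.05 by Benjamini-Hochberg. Of the 533 members, 273 passed the filter on low counts, 30 under 1 CPM and 243 at 1 CPM or more. At 6h against 0h, 49 members rose (17.9%, beside 20.8% of all genes tested) and 83 fell (30.4%, beside 18.2%). In these bulk samples, fewer cells expressing a gene and less RNA per cell cannot be told apart. Genes of 100 to 300 kb had 225 rises and 293 falls among 1198, and genes of 30 to 100 kb 760 and 724 among 3333. At 24h against 6h, 70 rose (25.6%, beside 17.4%) and 57 fell (20.9%, beside 18.8%). The 6h and 24h comparisons share their libraries with each other, so these counts are not independent. The median log2 change of the members was -0.05 at 6h, beside 0.01 over all genes. The labels do not say whether the replicates came from separate cultures. The biological coefficient of variation of 2.69% was small, so the p-values measure only the spread between these libraries.

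At 24h against 0h, 0 members rose (beside 4.17% of all genes tested) and 4 fell (1.47%, beside 2.87%) by edgeR. At an unadjusted p under 0.05 there were 43 of 273 members by edgeR and 32 by DESeq2, both directions together. The share of all genes at that limit is not given here, so these 2 counts say nothing particular about long genes. DESeq2 called 0 up and 4 down. Without 24h replicate 1, 14 fell, and 2 rose without 0h replicate 3 or without 24h replicate 3. The 4 were Unc5c, a netrin receptor (log2 change -0.31 ± 0.06 SE, edgeR adjusted p = 0.000823), Slit3, a guidance cue (-0.21 ± 0.04, adjusted p = 0.0014), Setbp1, a nuclear SET-binding protein (-0.20 ± 0.04, adjusted p = 0.00193), and Slit2 (-0.11 ± 0.03, adjusted p = 0.0175). Unc5c stood at 18.4, 19.9 and 19.8 CPM (scaled by TMM) at 0h, at 25.8, 26.5 and 26.1 at 6h and at 14.7, 15.9 and 16.5 at 24h. The 3 groups of Unc5c libraries did not overlap. Slit2 lost its call when any of 4 single libraries was left out, with edgeR adjusted p from 0.000821 to 0.147 over its 15 alternatives.

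The 4 largest rises at 6h were, in this order, those of Lrrc4c, a synaptic adhesion ligand, Tnik, a kinase, Piezo2 and Adam12. Lrrc4c stood at 9.10, 9.93 and 9.70 CPM at 0h, at 20.1, 19.8 and 21.7 at 6h and at 10.7, 8.85 and 9.85 at 24h. Its log2 change at 6h was 1.098 ± 0.07 (SE, edgeR adjusted p = 5.44e-13). The 6h libraries of Lrrc4c lay above all others, and its 0h and 24h libraries overlapped. Adam12 stood at 68.7, 76.6 and 73.5 CPM at 0h, at 119, 120 and 119 at 6h and at 69.0, 68.7 and 68.7 at 24h, a log2 change of 0.71 ± 0.03 at 6h (edgeR adjusted p = 4.73e-16). Tnik (0.90 ± 0.17) and Piezo2 (0.78 ± 0.20) rose from 2.01 and 1.15 CPM at 0h.

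Ank2, Tenm4 and Grik2 fell at 6h. Ank2, an ankyrin that anchors membrane proteins, stood at 14.1, 12.5 and 13.5 CPM at 0h, at 7.35, 6.60 and 7.50 at 6h and at 14.5, 11.95 and 10.9 at 24h. Its log2 change at 6h was -0.90 ± 0.09 (edgeR adjusted p = 6.27e-09), and no 6h library reached a 0h or 24h library. Tenm4, a teneurin adhesion receptor, stood at 47.8, 43.6 and 50.5 CPM at 0h, at 29.8, 26.1 and 26.8 at 6h and at 56.2, 53.4 and 43.2 at 24h, a log2 change of -0.77 ± 0.07 at 6h (edgeR adjusted p = 5.82e-10). Ccser1 (-0.96 ± 0.22), Grik2 (-0.87 ± 0.18) and Slc24a3, a sodium-calcium exchanger (-0.69 ± 0.11), fell from 1.58, 2.41 and 4.94 CPM. Their macroH2A2 coverage at 6h was 8.72% in Ccser1, 33.8% in Grik2, 12.1% in Slc24a3, 9.81% in Ank2 and 7.24% in Tenm4, beside 24.0% in Lrrc4c and 7.25% in Adam12. From 6h to 24h Tenm4, Grik2, Ank2 and Ccser1 rose, by 0.88, 0.81, 0.81 and 0.81 on the log2 scale, as did Galntl6, a glycosyltransferase (0.70), and Unc5c fell (-0.74). Galntl6 lost its call without 6h replicate 2 (edgeR adjusted p = 0.0882) and without 24h replicate 1 (edgeR adjusted p = 0.0583), with adjusted p from 0.00176 to 0.0882 over its 15 alternatives.

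By function, the counts are to be read beside all members tested, of which 17.9% rose and 30.4% fell at 6h, and 25.6% rose and 20.9% fell from 6h to 24h. The members on the fragile site list had 0 rises and 7 falls at 6h among 21 tested, and 7 rises and 0 falls from 6h to 24h. The transcription and chromatin regulators had 3 rises and 11 falls among 30 at 6h, and 11 and 4 from 6h to 24h. The trafficking and housekeeping genes had 3 and 8 among 34, and 12 and 3. The neuronal adhesion genes had 9 and 12 among 34, and 9 and 12. The ion channels and receptors had 5 and 4 among 15, and 3 and 6. The signalling genes had 6 and 8 among 30, and 3 and 7. The matrix and cytoskeleton genes had 3 and 7 among 25, and 5 and 4. At 24h against 0h, 3 neuronal adhesion genes had fallen and no other list had a call.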

How the data were processed

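RNA and ChIP libraries were grouped by their labelled treatment. Per the submitters' processing notes, tools included Bowtie 1.1.2, SICER 1.1 and STAR 2.5.2b, and builds GRCm38 and mm10. The deposited RNA files hold raw counts per gene, and column 4 was used because it held 96.6% or more of stranded counts. The deposited region lists (window 200, gap 800, caller threshold 0.01, per the file names) carry a score per region whose reference is not given in the sources used here, beside a deposited running number of each region, which is no measurement (other). In each list 3.36 to 16.1% of running numbers are left out, and those regions were not analysed here. The read depth behind the regions is unknown, and the input library was not used here.

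Regions were merged per list in pandas 2.3.3 and numpy 2.4.6 under Python 3.11.15, and set against RefSeq GRCm38.p6 gene spans. Genes were matched to counts by symbol (526) or older symbol (5), 2 stayed unmatched, and 128 members without a matched promoter have no strand. For RNA, low genes were dropped by filterByExpr and libraries scaled by TMM. The quasi-likelihood test of edgeR 4.0.16 (R 4.3.3) then compared the time groups without covariates, and was checked on simulated data. DESeq2 1.42.0 was an alternative. Classes use plain CPM, and RNA values per library are scaled by TMM. Intervals are from scipy 1.17.1 and figures from matplotlib 3.10.9. Named genes were the extremes of each class by expression, length, coverage or change in coverage, and the 5 largest called RNA changes in each direction at a mean of 1 CPM or more, with ties in alphabetical order. One gene that this rule names is not reported here. The members, lists and tests were chosen with earlier results of these data known.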

Additional observations from a re-analysis of the deposited data

Results flagged for a closer look

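Among the members with the largest changes at 6h, 9 are given here whose change at 6h differed from that at 24h, both against 0h, by the direct test of 24h against 6h, which called 70 members up and 57 down of 273 (edgeR's quasi-likelihood test, Benjamini-Hochberg adjusted over all genes). Lrrc4c was 1.098 at 6h and 0.04 at 24h on the log2 scale, a difference of -1.06 (adjusted p = 1.23e-12). The other differences were -0.71 for Tnik, -0.79 for Piezo2, -0.79 for Adam12, 0.81 for Ccser1, 0.81 for Ank2, 0.81 for Grik2, 0.88 for Tenm4 and 0.51 for Slc24a3, with adjusted p from 3.91e-17 to 0.00523. These genes were chosen for their change at 6h, and the direct test uses the same 6h libraries that chose them, so its values are not independent of that choice.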

How the results depend on the processing

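Without chromosomes 8, 15 and 17, an alternative chosen after seeing the data, the share of expressed members covered over 50% or more was 4.48% at 6h, 0.498% at 24h and 5.47% with flavopiridol, and under 1 CPM the difference with flavopiridol was -0.320 points and with GSK126 at 24h 0.474. With only regions scored above the median of their list, mean coverage under 1 CPM was 1.54% at 6h, 0.620% at 24h, 0.885% with flavopiridol and 3.38% at 5d, and at 1 CPM or more 2.89%, 0.825%, 2.25% and 3.69%. Coverage over 50% or more was then 0 at 6h and 24h in both classes, and with flavopiridol 0.347% under 1 CPM and 0 at 1 CPM or more. The flavopiridol difference was 0.265 points under 1 CPM, reversed, and 1.42 at 1 CPM or more, where 2.88% gained 10 points. GSK126 differences were 0.273 and 0.114 under 1 CPM (6h and 24h) and 0.936 and -0.190 at 1 CPM or more. The first and last of 10 parts of expressed genes were at 3.24% and 2.27% at 6h, 1.24% and 0.668% at 24h, and 2.93% and 2.35% with flavopiridol. This filter keeps 46.7% of regions at 5d, where the median score is 1, and 11.2% to 17.9% at 6h, 24h and with flavopiridol, where it is 2, so the 5d values cannot be compared with the others. Regions of 2 kb or more gave a GSK126 difference at 6h of 0.168 under 1 CPM. A length limit of 200 kb gave -1.16 with flavopiridol and 1.02 and 0.547 with GSK126 (6h and 24h) under 1 CPM. A limit of 500 kb gave -1.08, -0.374 and -0.569, the last 2 reversed. In expressed genes that limit gave shares covered over 50% or more of 5.95%, 1.19% and 4.76% (6h, 24h, flavopiridol), 30.95% gaining 10 points with flavopiridol, and GSK126 differences of 0.914 and -0.425. Without members that overlap another expressed gene the GSK126 difference at 24h under 1 CPM was 0.114. At 30% of the span, shares were 30.04% at 6h, 11.5% at 24h and 25.9% with flavopiridol at 1 CPM or more and 5.90% at 24h under 1 CPM, and at 80% they were 0.823%, 0.412% and 2.06%, and under 1 CPM 0, 0.694% and 0.347%. The broader 5d calls gave 11.8% under 1 CPM and 13.7% at 1 CPM or more. The cause of these changes was not tested beyond the construction of each alternative. CPM limits of 0.5 and 2 and classes from unstranded counts kept all 28 coverage results within their limits. The limit of a share or a mean was an exact binomial interval over genes. For a mean this is only a working limit and does not measure its spread. The limit of a difference was the same sign and a change of at most 1.5 times. For RNA, the alternatives changed 1 count by over 1.5 times besides the leave-one-out values: without a low-count filter, 2 members rose at 24h. Leaving out single libraries gave 43 to 51 rises and 69 to 87 falls at 6h, 0 to 2 rises and 3 to 14 falls at 24h, and 59 to 72 rises and 45 to 58 falls from 6h to 24h. Same-numbered libraries did not deviate together (correlations of -0.018 to 0.039, beside -0.062 to 0.052 for different numbers). Whether same-numbered libraries share a culture or batch cannot be told from this, and the main fit did not pair them. The replicate block gave 50 rises and 86 falls at 6h, 0 and 4 at 24h, and 71 and 56 from 6h to 24h, and changed none of these counts by over 1.5 times.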
